A study of Arabidopsis thaliana with 9 samples.

Results

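EEL, BZIP53, SPT and DOGL4 encode regulators of seed maturation and germination in Arabidopsis thaliana, and their transcripts were followed in dry seeds of 3 genotypes. The genes were chosen by name, as the features annotated to EEL (AT2G41070), BZIP53 (AT3G62420), SPT (AT4G36930) and DOGL4 (AT4G18650), each of which had a single probe set. They are 4 of 13286 genes with a named feature on the arrays, and 22746 features were tested in all. The study compared 3 genotypes on 9 one-colour Affymetrix arrays, with 3 biological replicates each and every replicate a bulk of several plants. NILDOG1 is a near isogenic line in the Landsberg erecta background that holds the Cvi version of DELAY OF GERMINATION 1 (DOG1), whose expression the labels give as strong. The dog1-1 mutant, in the same background, has DOG1 expression labelled as absent, and Ler is the wild type Landsberg erecta, labelled as low. Seeds of all 3 genotypes were mature, dry and freshly harvested, with no treatment. The transcript of DOG1 (AT5G45830) was not analysed here, for want of a feature named to it, and gives no check of the genotype labels.

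Seeds lay down storage proteins, oil and protective proteins during maturation, then dry and stay dormant until germination is released. Abscisic acid and a network of transcription factors drive maturation, and many of the target promoters carry ACGT core elements that basic leucine zipper (bZIP) proteins bind as dimers. EEL (ENHANCED EM LEVEL) is such a bZIP protein of the abscisic acid branch and is known to act against ABI5 at the promoter of the late embryogenesis gene EM1. BZIP53 pairs with other bZIP proteins and, together with ABI3, activates storage protein and late embryogenesis genes. SPT (SPATULA) is a basic helix-loop-helix (bHLH) protein that sets the germination response of seeds to light and cold, besides its role in the carpel. DOGL4 belongs to the small family of genes related to DOG1 and has been linked to the build-up of seed reserves. The locus names place EEL on chromosome 2, BZIP53 on chromosome 3 and SPT and DOGL4 on chromosome 4, so none shares chromosome 5 with DOG1.

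All values are log2 RMA signals, means carry standard deviations over 3 arrays, and changes are differences of log2 signals with standard errors (SE). The array medians lay between 3.51 and 3.59, and the number of arrays limits the precision. The 25S ribosomal RNA control stood apart on Ler replicate 1 (7.33) and dog1-1 replicate 3 (8.04), against 9.86 to 11.88 on the other arrays. The bacterial TrpnX control features, whose transcript seeds lack, reached at most 2.56, and signals up to that value were taken as background. Of 11 dry seed markers 3 had a named feature, all above background, and their summed signal was 14.84 to 14.93 in NILDOG1, 14.74 to 14.79 in dog1-1 and 14.83 to 14.88 in Ler. The sum is of unlogged signals and mostly follows AT3G15670 and PAP85 (means over all arrays 13.89 and 13.50). It hardly shows M17 (11.10), which fell in dog1-1 against Ler. Probe sets differ in brightness, so levels are compared between genotypes and not between genes.

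EEL and SPT rose in dog1-1 seeds, while BZIP53 and DOGL4 fell, and no change of these genes passed the test between NILDOG1 and Ler. The rises were 1.81-fold for EEL and 1.85-fold for SPT, and the falls 1.56-fold for BZIP53 and 1.27-fold for DOGL4. With limma fitted over all features and an adjusted p of 0.05, 2 of the 4 genes were higher and 2 lower in dog1-1 than in Ler. Across all features 13.6% passed in that comparison, 8.33% of them all being higher and 5.28% lower. The arrays of dog1-1 and Ler did not overlap for any of the 4 genes, as for 26.9% of all features. The 4 genes were chosen with earlier results of these data known, so their counts cannot be weighed against these shares. In bulk seeds, fewer cells of a type and less RNA per cell cannot be told apart. The genotypes also differed in a measure of RNA quality, the 3′ minus 5′ signal of the GAPDH control, which was 1.23 to 1.36 in NILDOG1, 1.40 to 1.75 in dog1-1 and 0.83 to 1.11 in Ler. The same measure overlapped between genotypes for actin (4.16 to 4.43 in NILDOG1, 4.21 to 4.90 in dog1-1 and 4.32 to 4.78 in Ler) and for ubiquitin (1.14 to 1.25 in NILDOG1, 1.06 to 1.32 in dog1-1 and 1.14 to 1.25 in Ler). The part of RNA quality in the changes was not tested.

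**Figure D1:**
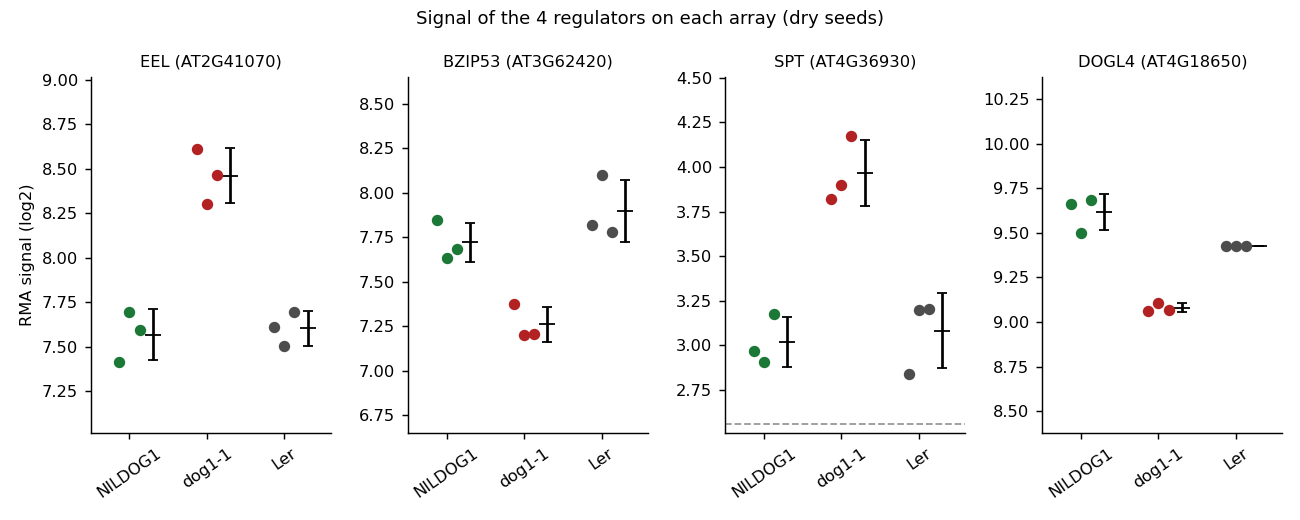
RMA signal (log2, vertical axes all spanning 2 units, not starting at 0) of EEL, BZIP53, SPT and DOGL4 on each array, with NILDOG1 in green, dog1-1 in red and Ler in grey. Dots are arrays, black bars are means with standard deviations (n = 3), and the dashed line in the SPT panel marks the highest background value (2.56). The dog1-1 arrays lie above all others for EEL and SPT and below all others for BZIP53 and DOGL4.

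EEL had a signal of 7.42, 7.70 and 7.59 on the NILDOG1 arrays, of 8.61, 8.30 and 8.46 on the dog1-1 arrays, and of 7.61, 7.50 and 7.70 on the Ler arrays. All dog1-1 arrays were high, by at least 0.61 over the highest array of either other genotype, and the NILDOG1 and Ler arrays were interleaved. The means were 7.57 ± 0.14 in NILDOG1, 8.46 ± 0.16 in dog1-1 and 7.60 ± 0.098 in Ler. The change in dog1-1 against Ler was 0.86 (SE 0.11, limma, adjusted p = 2.56e-04), and 4.69% of all features changed more. In NILDOG1 against Ler it was -0.036 (95% interval -0.28 to 0.21, adjusted p = 0.989), so that an equal change to that in dog1-1 lies outside the interval. Without both arrays of low 25S signal the dog1-1 change was 0.86 (limma, adjusted p = 0.00622).

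BZIP53 had 7.85, 7.63 and 7.68 in NILDOG1, 7.38, 7.20 and 7.21 in dog1-1, and 7.82, 8.10 and 7.78 in Ler. The dog1-1 arrays were the 3 lowest, and those of NILDOG1 and Ler overlapped. The level averaged 7.72 ± 0.11 in NILDOG1, 7.26 ± 0.10 in dog1-1 and 7.90 ± 0.18 in Ler. In dog1-1 it fell by 0.64 against Ler (SE 0.11, limma, adjusted p = 0.00209), and 7.64% of all features changed more. The difference of NILDOG1 from Ler was -0.18 (95% interval -0.42 to 0.067, adjusted p = 0.921). The order of the means was thus Ler, NILDOG1 and dog1-1, where Ler and NILDOG1 did not differ beyond the spread of their arrays.

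SPT lay close to background, with 2.97, 2.91 and 3.17 in NILDOG1, 3.82, 3.90 and 4.17 in dog1-1, and 2.84, 3.20 and 3.21 in Ler. All 9 arrays lay above the highest background value, and the dog1-1 arrays stood at least 0.61 above every other array. Mean signals were 3.02 ± 0.14 in NILDOG1, 3.96 ± 0.18 in dog1-1 and 3.08 ± 0.21 in Ler. SPT rose by 0.88 in dog1-1 against Ler (SE 0.13, limma, adjusted p = 6.87e-04), and 4.44% of all features changed more. Close to background a log2 difference can understate a change of the transcript, which was not tested for SPT. Without both arrays of low 25S signal, of which dog1-1 replicate 3 was the highest for SPT and Ler replicate 1 the lowest, the rise was 0.66 (limma, adjusted p = 0.00837). The NILDOG1 difference from Ler was -0.064 (95% interval -0.36 to 0.23, adjusted p = 0.983).

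DOGL4 gave the most even signals, with 9.66, 9.50 and 9.69 in NILDOG1, 9.06, 9.11 and 9.07 in dog1-1, and 9.43 on each of the 3 Ler arrays. In the deposited signals the 3 genotypes did not overlap, with NILDOG1 highest, Ler between and dog1-1 lowest. This is the order of the DOG1 expression in the labels. The gap between NILDOG1 and Ler was 0.075, and their difference did not pass (limma, adjusted p = 0.851). With arrays centred on the spiked-in hybridization controls, the mean of dog1-1 was no longer below that of Ler (change 0.0058). The share of all features that keep this order was not counted. Between NILDOG1 and Ler 9.32% of all features showed no overlap, and between dog1-1 and Ler 26.9%. The means were 9.62 ± 0.10 in NILDOG1, 9.08 ± 0.025 in dog1-1 and 9.43 ± 4.6e-04 in Ler. Its spread within genotypes was low, since 3.31% of all features had a lower pooled standard deviation. DOGL4 fell by 0.35 in dog1-1 against Ler (SE 0.088, limma, adjusted p = 0.0206), a size that 18.7% of all features exceeded. Without Ler replicate 2, Ler replicate 3 or dog1-1 replicate 3 the adjusted p became 0.0525, 0.0563 and 0.0696, and without both arrays of low 25S signal 0.0994, at falls of 0.35, 0.35, 0.34 and 0.34.

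The fall of BZIP53 and that of DOGL4 also depended on how arrays were brought to a common scale. The spiked-in hybridization controls were 9.12 to 9.27 in NILDOG1, 8.81 to 9.14 in dog1-1 and 9.19 to 9.57 in Ler. Centred on them, the arrays gave a median change of all features of 0.31 in dog1-1 against Ler, against -0.040 as deposited. The change of EEL became 1.21 and that of SPT 1.24, both past the threshold (limma, adjusted p = 1.09e-05 and 4.99e-05). The change of BZIP53 became -0.29 (adjusted p = 0.201), and that of DOGL4 turned to 0.0058 (adjusted p = 0.977). Of the features called in that comparison 61.2% were higher in dog1-1 on the deposited scale and 93.7% after centring. Relative to the median of all features, which neither scale alters, the changes were 0.90 for EEL, 0.92 for SPT, -0.60 for BZIP53 and -0.31 for DOGL4.

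**Figure D2:**
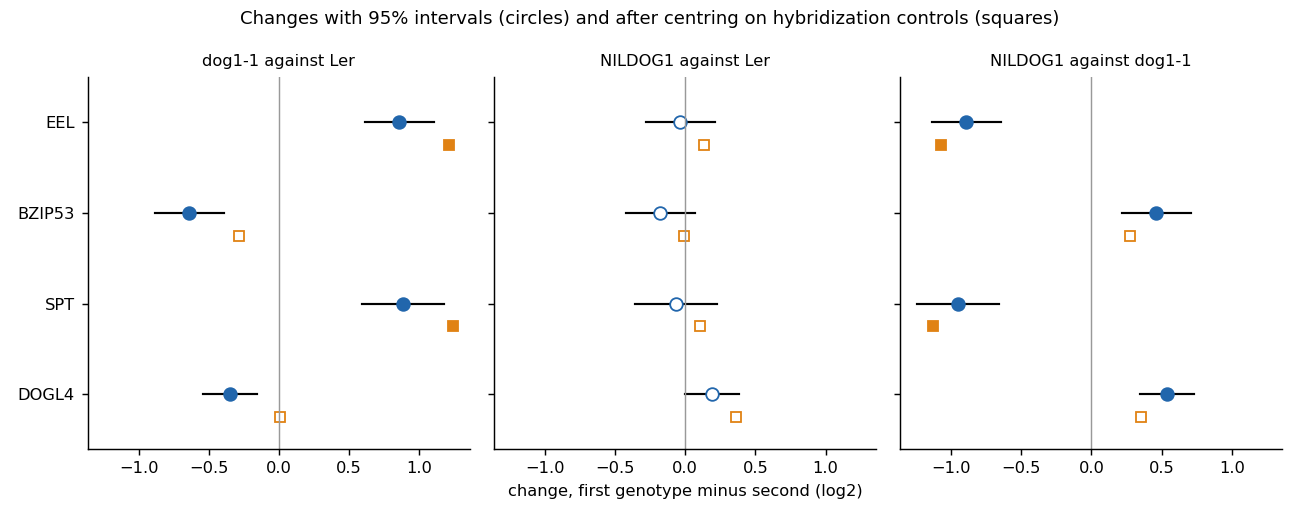
Change of each gene in the 3 comparisons, as log2 signal of the genotype named first minus that of the second (horizontal axes). Circles with black bars are limma changes with 95% intervals on the deposited scale, squares are changes after centring on the hybridization controls, and filled symbols passed an adjusted p of 0.05. EEL and SPT stay filled on both scales where dog1-1 is involved, while BZIP53 and DOGL4 are filled on the deposited scale alone.

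Between NILDOG1 and Ler, the comparison of the strong with the low DOG1 label, limma called 0 of the 4 genes, and 0 had an unadjusted p under 0.05. Among all features 0.545% were called. The arrays did not overlap for DOGL4 alone of the 4, where 9.32% of all features showed no overlap. The lowest NILDOG1 array stood 0.075 above the highest Ler array for DOGL4. Its difference was 0.19 (SE 0.088, 95% interval -0.0015 to 0.38, unadjusted p = 0.0516, adjusted p = 0.851), higher in 3 of 3 NILDOG1 arrays. Centred on the hybridization controls it was 0.36 (adjusted p = 0.664), and the difference of BZIP53 was -0.0088 in place of -0.18.

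NILDOG1 and dog1-1 stand for the strongest and the absent DOG1 label, and limma called all 4 genes between them. BZIP53 and DOGL4 were higher in NILDOG1 and EEL and SPT lower, against a background of 12.5% of all features called, 4.94% higher and 7.52% lower. No gene overlapped between those arrays, nor did 27.0% of all features. This comparison shares the dog1-1 arrays with the first one, so its calls are not separate evidence. EEL differed by -0.89 (SE 0.11, limma, adjusted p = 1.93e-04), a 1.85-fold lower level in NILDOG1. SPT differed by -0.95 (SE 0.13, limma, adjusted p = 4.10e-04), 1.93-fold lower. BZIP53 was 1.38-fold higher, by 0.46 (SE 0.11, limma, adjusted p = 0.0171). That call was lost without dog1-1 replicate 2, dog1-1 replicate 3 or NILDOG1 replicate 1 (adjusted p = 0.0645, 0.0704 and 0.0809) and without both arrays of low 25S signal (0.0714). DOGL4 was 1.45-fold higher, by 0.54 (SE 0.088, limma, adjusted p = 0.00130). Centred on the hybridization controls, BZIP53 and DOGL4 were still higher in NILDOG1, by 0.28 and 0.35, but no longer past the threshold (adjusted p = 0.444 and 0.242).

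EEL and BZIP53 were set beside the other bZIP genes. The gene table names 57 genes as bZIP, of which 22 had a named feature, 9 of them with a mean at background. In dog1-1 against Ler 2 rose (EEL and bZIP44), 1 fell (BZIP53) and 19 did not pass. These 3 of 22, among them EEL and BZIP53, which were chosen by name with earlier results known, are the same share as the 13.6% called among all features. The median change was -0.027 beside -0.040 over all features. EEL and BZIP53 stood at either end of the 22 changes. The gene bZIP44, of the same subgroup as BZIP53, had 2.97, 3.14 and 3.29 in NILDOG1, 3.54, 3.87 and 3.89 in dog1-1, and 3.40, 3.22 and 3.24 in Ler. These signals lay close to background, as those of SPT did. The dog1-1 arrays were the highest, and bZIP44 rose by 0.48 against Ler (SE 0.12, limma, adjusted p = 0.0209). That call was lost when Ler replicate 2 or 3 or dog1-1 replicate 2 or 3 was left out (adjusted p from 0.0683 to 0.0959) and without both arrays of low 25S signal (0.0861). In NILDOG1 against Ler 0 of the 22 were called by limma, and 0 had an unadjusted p under 0.05.

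**Figure D3:**
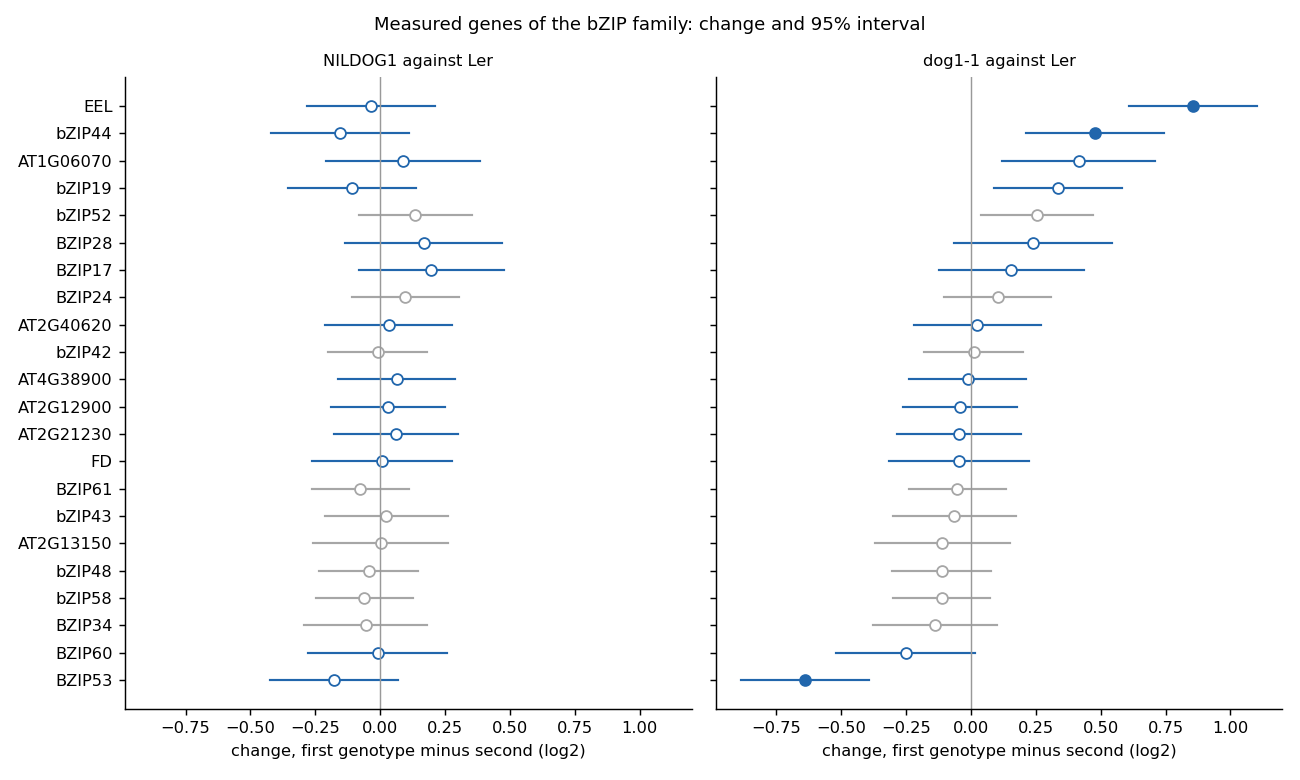
Change (log2, horizontal axes) with 95% interval of the 22 measured bZIP genes in NILDOG1 against Ler (left) and dog1-1 against Ler (right), ordered by the change in dog1-1. Filled circles passed an adjusted p of 0.05, and grey marks genes whose mean was at background. EEL is at the top (0.86) and BZIP53 at the bottom (-0.64) in dog1-1, and no circle is filled for NILDOG1.

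In NILDOG1 against dog1-1, 1 bZIP gene was higher (BZIP53), 3 were lower and 18 did not pass, where 12.5% of all features were called (4.94% higher, 7.52% lower), with a median of 0.046 beside 0.035 over all features. The 3 lower genes were EEL, bZIP44 (by 0.63, SE 0.12, limma, adjusted p = 0.00392) and bZIP19, a regulator of the zinc deficiency response. The last averaged 5.80 ± 0.20 in NILDOG1 against 6.25 ± 0.047 in dog1-1 (SD, n = 3 each), without overlap and with a difference of -0.44 (SE 0.11, limma, adjusted p = 0.0220). Its call was lost without dog1-1 replicate 1 or 3, NILDOG1 replicate 1 or 3 (adjusted p from 0.0574 to 0.0918) or both arrays of low 25S signal (0.0657). Of 18 bZIP factors of maturation and their partners, EEL, BZIP53 and bZIP44 had a named feature and the other 15 were not analysed here.

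For SPT, the nearest relative with a named feature was ALC (ALCATRAZ), a bHLH gene of fruit opening. ALC had 2.64 to 2.69 in NILDOG1, 2.52 to 2.71 in dog1-1 and 2.42 to 2.79 in Ler, all close to background, so a change could not be judged. ALC and SPT were the 2 members with a named feature in a list of 26 genes of light and gibberellin control of germination. SPT, which was chosen with earlier results known, was the one that passed, where 13.6% of all features were called in dog1-1 against Ler. Of 34 genes named as bHLH in the gene table, among which SPT and ALC are not listed as such, 7 had a named feature. By limma 1 of them rose in dog1-1 against Ler, none fell and 6 missed the threshold, near the 13.6% called among all features, with 3 at an unadjusted p under 0.05 and a median change of 0.049. The gene that rose was bHLH34, with 4.99, 4.70 and 4.87 in NILDOG1, 5.27, 5.42 and 5.25 in dog1-1, and 5.08, 4.95 and 4.71 in Ler. Its rise of 0.40 (SE 0.12, limma, adjusted p = 0.0436) was smaller than that of SPT and did not pass when any of 7 single arrays was left out (adjusted p from 0.0522 to 0.159), without both arrays of low 25S signal (0.0527) after quantile normalization (0.153), with an intensity trend in the prior (0.0762), in a fit of the compared arrays alone (0.0678) or with the replicate number as a block (0.0608). In NILDOG1 against dog1-1, where 12.5% of all features were called and 7.52% were lower, bHLH34 was the 1 of the 7 that passed. Its difference of -0.46 (SE 0.12, limma, adjusted p = 0.0228) did not pass when any of 4 single arrays was left out (adjusted p from 0.0514 to 0.0977). Nor did it pass after quantile normalization (0.0527).

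Few of the genes that these regulators act on had a named feature, which does not show that the arrays lack a probe set for the others. Of 23 maturation genes bound by bZIP factors or used as their readouts 4 had a named feature, of which 0 rose, 1 fell and 3 did not pass in dog1-1 against Ler (limma, 1 with an unadjusted p under 0.05), where 13.6% of all features were called and 5.28% were lower. M17, a late embryogenesis gene, had 11.92, 11.95 and 11.43 in NILDOG1, 10.17, 10.07 and 9.65 in dog1-1, and 11.62, 11.65 and 11.47 in Ler. The dog1-1 arrays were lowest without overlap, and M17 fell by 1.62 (SE 0.16, limma, adjusted p = 2.95e-05), a larger fall than that of BZIP53. AT3G15670 (LEA76), a known target of BZIP53, had 13.90 to 13.92 in NILDOG1, 13.80 to 13.89 in dog1-1 and 13.89 to 13.90 in Ler, near the top of the scale. The storage protein gene PAP85 had 13.43 to 13.55 in NILDOG1, 13.51 to 13.57 in dog1-1 and 13.38 to 13.50 in Ler. M10, a late embryogenesis gene, had 13.20 to 13.23 in NILDOG1, 13.20 to 13.30 in dog1-1 and 13.15 to 13.20 in Ler. PAP85 and M10 were thus high on the scale too, and whether signals that high still follow the transcript was not tested. In dog1-1 against Ler the change of AT3G15670 was -0.045 (95% interval -0.23 to 0.14), that of PAP85 0.084 (-0.11 to 0.27) and that of M10 0.058 (-0.12 to 0.24). No member of the list of LEC1, ABI3, FUS3, LEC2 and their partners and repressors (10 genes), nor of that of abscisic acid signalling and dormancy (23 genes), had a named feature, and these lists were not analysed here. Of the 5 genes of the DOG1 family, DOGL4 was the one with a named feature.

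Some measured markers of other tissues changed in dog1-1 against Ler, where 13.6% of all features were called. Of 7 green tissue markers 3 had a named feature, all above background, of which 2 rose and 1 fell. RCA, the Rubisco activase gene, rose by 1.52 (SE 0.13, limma, adjusted p = 8.91e-06). Of the light-harvesting genes, LHCB4.1 was the one that fell, by 0.62 (limma, adjusted p = 0.0413), while LHCB4.2 had a rise of 0.50 (0.0409). Leaving out single arrays ended both calls, with LHCB4.2 at 0.37 to 0.64 (limma, adjusted p up to 0.133) and LHCB4.1 at -0.84 to -0.40 (up to 0.134). LHCB4.1 was at -0.26 after centring on the hybridization controls (adjusted p = 0.318). The summed signal of the 3 was 9.02 to 9.30 in NILDOG1, 8.66 to 8.87 in dog1-1 and 8.70 to 9.37 in Ler. Signals were summed unlogged, so the sum mostly follows LHCB4.1, whose mean over all arrays was 8.62, against 6.17 for LHCB4.2 and 4.82 for RCA. The 2 of 7 endosperm markers with a named feature summed to 4.15 to 4.30 in NILDOG1, 3.91 to 4.19 in dog1-1 and 4.32 to 4.50 in Ler. Of these IKU2, a receptor kinase gene of endosperm growth, fell by 0.42 in dog1-1 against Ler (SE 0.10, limma, adjusted p = 0.0153), and AGL62, at background, did not pass (adjusted p = 0.509). The IKU2 call was lost without Ler replicate 3 or dog1-1 replicate 3 (adjusted p = 0.0520 and 0.0762), without both arrays of low 25S signal (0.139) and after centring on the hybridization controls, where its change was -0.064 (0.738). The 2 of 7 seed coat markers with a named feature summed to 3.70 to 3.90 in NILDOG1, 3.63 to 3.85 in dog1-1 and 3.72 to 3.92 in Ler. By limma 0 of them passed, with 1 at an unadjusted p under 0.05. Both, BAN (mean over all arrays 2.81) and DFR (2.73), lay close to background, so a change could not be judged. Of the 3 dry seed markers 1, M17, fell and the other 2 did not pass. Whether tissue make-up has a part in the changes of the 4 regulators was not tested.

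The genes whose pattern was most like each regulator were found by centring every feature on its own mean and taking the root mean square of the difference over the 9 arrays. The search covered 10082 other genes above background. For EEL the nearest were AT5G18220 (0.093), AT5G38195 (0.11), SBPASE (0.11), AT1G73920 (0.12) and RD2 (0.12), against a median of 0.47 over all candidates. SBPASE encodes sedoheptulose-bisphosphatase of the Calvin cycle, and RD2 is named for its response to desiccation. SBPASE had 3.16 to 3.49 in NILDOG1, 4.01 to 4.19 in dog1-1 and 3.30 to 3.58 in Ler. RD2 had 7.79 to 7.97 in NILDOG1, 8.65 to 8.89 in dog1-1 and 7.82 to 8.18 in Ler. Both were therefore high on the dog1-1 arrays and overlapped between NILDOG1 and Ler, as EEL did.

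For BZIP53 the nearest genes were AT5G23850 (0.071), AT4G14500 (0.089), PDC2 (0.090), AT5G46390 (0.094) and AT1G18030 (0.095), beside a median of 0.31. PDC2 encodes a pyruvate decarboxylase of fermentation and had 10.64 to 10.95 in NILDOG1, 10.16 to 10.35 in dog1-1 and 10.75 to 10.93 in Ler. For SPT they were PYK10 (0.091), AT3G43270 (0.12), AT3G19800 (0.13), PGM (AT1G78050, 0.13) and AT3G12290 (0.14), beside a median of 0.50. PYK10, a beta-glucosidase gene, was faint like SPT, with 2.68 to 2.89 in NILDOG1, 3.56 to 3.86 in dog1-1 and 2.63 to 2.98 in Ler. For DOGL4 they were AT4G37480 (0.070), AT4G19010 (0.073), AT3G60290 (0.080), SR (AT4G11640, the serine racemase gene, 0.084) and AT1G29110 (0.084), beside a median of 0.26. AT4G19010 had 4.82 to 5.07 in NILDOG1, 4.32 to 4.43 in dog1-1 and 4.72 to 4.85 in Ler, with overlap of NILDOG1 and Ler. AT3G60290 had 5.53 to 5.61 in NILDOG1, 5.13 to 5.24 in dog1-1 and 5.34 to 5.37 in Ler, and so kept all 3 genotypes apart in the order seen for DOGL4. AT1G29110, close to background, did so too by a narrow margin, with at least 2.979 in NILDOG1, at most 2.973 in Ler and at most 2.79 in dog1-1. The search favours genes with this order, and neither AT3G60290 nor AT1G29110 passed between NILDOG1 and Ler (limma, adjusted p = 0.649 and 0.917).

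**Figure D4:**
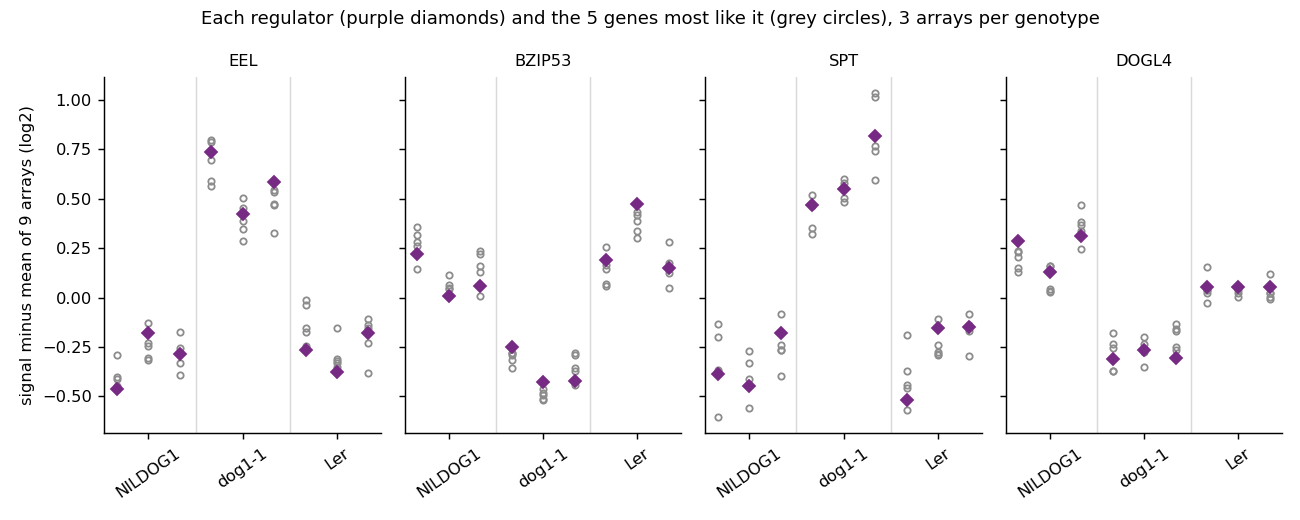
Signal minus the mean of the 9 arrays (log2, vertical axis) for each regulator (purple diamonds) and the 5 genes most like it (grey circles), with NILDOG1, dog1-1 and Ler from left to right and 3 arrays each. The dog1-1 arrays are high in the EEL and SPT panels and low in the BZIP53 and DOGL4 panels.

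All 20 of these genes were called by limma in NILDOG1 against dog1-1 (10 higher, 10 lower) and 16 in dog1-1 against Ler (10 higher, 6 lower), which the search itself favours. In NILDOG1 against Ler 0 were called, and 1 had an unadjusted p under 0.05. Among the regulators themselves, EEL and SPT differed by a root mean square of 0.19 and BZIP53 and DOGL4 by 0.19, while the 4 mixed pairs differed by 0.64 to 0.72. This split follows from the rises of EEL and SPT and the falls of BZIP53 and DOGL4 in dog1-1, and is no separate result. SPT was in place 98 among the genes most like EEL, and DOGL4 in place 422 among those most like BZIP53, so other genes were closer to each of them.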

How the data were processed

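RNA from dry seeds was labelled with biotin and hybridized to 9 Affymetrix arrays, 3 for each genotype. The deposited values are log2 signals that the authors normalized with RMA, per the submitters' processing notes, with 1 value per probe set and array. Sources used here give neither the RMA version nor the chip definition, and the log2 base was read from the values. Of 22810 probe sets, 64 Affymetrix controls were left out. Of the 22746 tested, 13436 were matched by gene ID to 1 locus of the RefSeq gene table (TAIR10.1), 503 were listed with several genes and 8730 were not listed. Coordinates and sequences are not used here.

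Genotypes were compared with limma 3.58.1 in R 4.3.3 (lmFit, eBayes). One model held the 9 arrays and a term for genotype alone, which left 6 residual degrees of freedom. The p-values were adjusted by Benjamini-Hochberg across every feature tested, and 0.05 was the threshold. The steps were tested on simulated data with 200 changed features. For dog1-1 against Ler, limma recovered 38.7% of log2 changes of 0.5, 91.6% of those of 1 and 99.8% of those of 2. Small changes can thus miss the threshold. In the data 3095 features were called in that comparison, so these shares need not hold there. Where 3 arrays meet 3, an exact permutation test cannot go below 0.1, so none is given. The members and lists were chosen with earlier results of these data known. Named genes were the 4 regulators, the 5 genes most like each, members of the lists that passed or the one with the highest mean where none passed, and up to 3 rises and 3 falls per family. ALC, AT3G15670, PAP85 and M10 were added to complete counts after their values were seen. Arrays were not paired by replicate number. Same-numbered arrays of different genotypes correlated between -0.231 and 0.0299 after removal of genotype means (9 pairs, 0 over 0.1). Arrays of different genotypes with other numbers correlated between -0.151 and 0.275 (18 pairs, 6 over 0.1), so some arrays shared variation that the replicate number does not follow. Alternatives were other scalings, a trend prior, a filter on dim features, a fit of the compared arrays alone, a replicate block and leaving out each array. Leaving out both arrays of low 25S signal was chosen after seeing the data.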

Additional observations from a re-analysis of the deposited data

How the results depend on the processing

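The calls of EEL and SPT in dog1-1 against Ler and in NILDOG1 against dog1-1 kept their direction and their side of the threshold under every alternative run. Centring on the hybridization controls ended 4 calls of the regulators: BZIP53 in dog1-1 against Ler (-0.29), BZIP53 in NILDOG1 against dog1-1 (0.28), DOGL4 in NILDOG1 against dog1-1 (0.35) and DOGL4 in dog1-1 against Ler, which also turned sign (0.0058). Among changes that had not passed, it reversed those of EEL (0.13) and SPT (0.10) in NILDOG1 against Ler. In dog1-1 against Ler it also reversed AT3G15670 (0.31), AT4G37480 (0.051), AT3G60290 (0.16), SR (0.050) and AT1G29110 (0.099), and in NILDOG1 against dog1-1 ALC (-0.11) and AT3G15670 (-0.12). The count of features called in dog1-1 against Ler became 5173 under that centring, against 3095. Its own construction adds the same shift to every feature of an array. The cause of the unequal controls was not tested.

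Without both arrays of low 25S signal, BZIP53 in NILDOG1 against dog1-1 (0.43) and DOGL4 in dog1-1 against Ler (-0.34) no longer passed, and the counts called were 1981 in dog1-1 against Ler and 70 in NILDOG1 against Ler, with fewer samples in the fit. Leaving out 1 array at a time gave EEL 0.78 to 0.93 in dog1-1 against Ler, -0.10 to 0.040 in NILDOG1 against Ler and -0.97 to -0.81 in NILDOG1 against dog1-1. It gave BZIP53 -0.70 to -0.54, -0.24 to -0.077 and 0.40 to 0.52 in the same comparisons, SPT 0.76 to 0.96, -0.19 to -0.0017 and -1.03 to -0.84, and DOGL4 -0.36 to -0.34, 0.16 to 0.25 and 0.50 to 0.59. The counts called ran from 2182 to 3059, from 65 to 137 and from 2064 to 3060. ALC ran from -0.035 to 0.15 in dog1-1 against Ler and M10 from -0.036 to 0.014 in NILDOG1 against dog1-1, with changes of sign near 0. With the replicate number as a block, the samples sharing only a number, 2792 features were called in dog1-1 against Ler, 114 in NILDOG1 against Ler and 2567 in NILDOG1 against dog1-1. The block changed no call of the 4 regulators, DOGL4 in dog1-1 against Ler having an adjusted p of 0.0468 (limma). The signal of SPT lay close to background, which limits its value.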

Other observations

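The near-equal Ler signals of DOGL4 (9.43 on all 3 arrays, 2 of them identical in the file) have counterparts across the arrays. At least 2 of 3 arrays held an identical value for 9.91% of features in NILDOG1, 8.86% in dog1-1 and 8.45% in Ler. All 3 arrays were identical for 152 features in NILDOG1, 157 in dog1-1 and 106 in Ler, among them AT1G73920 in Ler (7.92), one of the genes most like EEL. The standard deviation was under 0.001 for 171 features in NILDOG1, 188 in dog1-1 and 116 in Ler, where the median was 0.11 in NILDOG1, 0.12 in dog1-1 and 0.13 in Ler.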
